A study of Mus musculus with 12 samples.

Results

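Lipid-associated macrophages are macrophages of obese adipose tissue that gather at dying adipocytes, and 10 genes known to mark them were followed here: Trem2, Itgax, Cd9, Spp1, Lgals3, Gpnmb, Acp5, Lpl, Fabp4 and Fabp5. They were taken by gene name from the 15393 genes of the expression data. All 10 had a mean of at least 1 FPKM (reads scaled by gene length and by the counted reads of the library) over the libraries and so were among the 12119 genes that were tested. RNA had been sequenced from adipose tissue macrophages (ATMs), sorted as live CD45+ CD11b+ F4/80+ cells from the stromal vascular fraction (SVF) of visceral fat, to find which ATM genes depend on miR-146a and on diet. The 4 groups of 3 libraries were WT mice on normal chow (NCD), miR-146a-/- mice on NCD, WT mice on high fat diet (HFD) and miR-146a-/- mice on HFD. All mice were on a C57BL/6 background, began their diet at an age of 6 weeks, stayed on it for 14 weeks and were 20 weeks old at harvest. The deletion was present in every cell of the miR-146a-/- mice and not in macrophages alone, and the chow and the HFD came from different makers. Each library pooled cells of 3 mice, so the p-values measure the spread between pools and not between single mice.

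The reads counted to genes numbered 9998868 to 11559282 in each library. Macrophage markers were high in all of them, with a summed level of 10688 to 12225 FPKM for the 10 markers measured, of which Lyz2, C1qa and Csf1r were the highest. That sum was mostly Lyz2, with a mean of 7492 FPKM over all libraries. Of the others, C1qa ranged from 1599 to 2906 FPKM and Itgam from 88.1 to 255 FPKM. One library stood apart: the summed level of 12 neutrophil markers was 19546 FPKM in miR-146a-/- HFD replicate 1, against 608 to 1765 FPKM in the other miR-146a-/- libraries and 143 to 258 FPKM in the WT libraries. The neutrophil granule gene Camp was listed at 0 in every WT library. In bulk RNA, a change in the number of cells of a type cannot be told apart from a change in the RNA per cell. The level of miR-146a itself was not analysed here, and the genotypes rest on the sample labels.

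TREM2 is a lipid-sensing receptor that signals through the adaptor TYROBP, and in mice the full lipid-associated program of adipose tissue macrophages depends on it. The program joins surface proteins, secreted ligands, lysosomal proteins and proteins that release, bind and carry fatty acids. miR-146a is a brake on inflammatory signaling that acts by pairing of its seed with sites in target mRNAs.

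The mature miR-146a-5p sequence is shown because the members were searched for matches to its seed. It lies on chromosome 11 (43374435 to 43374456, minus strand, GRCm38.p6, RefSeq), and the seed, bases 2 to 8, is in capitals. A match to the seed was found in an annotated 3′ UTR (GENCODE M21) of 1 of the 10 members, Fabp5, at chr3:10016226-10016250 on the plus strand of GRCm38, shown with the match in capitals and without an A opposite the first base of the miRNA. Across all genes with an annotated 3′ UTR, 11.9% held such a match, so the members' share of 10% was near that of all genes. Only full matches to bases 2 to 8 were searched, and shorter matches in the other members were not looked for.
mmu-miR-146a-5p: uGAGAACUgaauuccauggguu
Fabp5 site: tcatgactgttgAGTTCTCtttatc

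Promoters were read because most of the members were higher in the same group, from RefSeq windows of 250 bases before to 50 bases after a start site (GRCm38.p6), which matched 7 members with 10 windows. Lpl, Fabp4 and Fabp5 were not matched. On either strand, a loose AP-1 motif, TGANTCA with any base at its centre, was in 3 of the 10 windows, those of Trem2, Gpnmb and Itgax. It was in 7.81% of all 32851 promoter windows. The centre base was A in Trem2, C in Gpnmb and G in Itgax. The PU.1 motif GAGGAAG was in 2 of the 10 windows, of Trem2 and Spp1, and in 13.6% of all promoters. The M-box TCATGTG, a motif of the MITF family of lysosomal regulators, was found at the third start of Acp5 and in 3.77% of all promoters. The E-box CACGTG (7.15% of all promoters) and the PPAR direct repeat (0.0396%) were in none of the member windows. The stretches around these matches are shown with the motif, or its reverse complement, in capitals. They are the AP-1 matches of Trem2 (9 bases before the start, chr17:48346365-48346425, plus strand), Gpnmb (at base 9 after the start, chr6:49036499-49036559, plus strand) and Itgax (56 bases before the start, chr7:128129467-128129527, plus strand), the PU.1 match of Spp1 (113 bases before the start, chr5:104434971-104435031, plus strand) and the M-box match of Acp5 (90 bases before the start, chr9:22130655-22130715, minus strand). A match is a description of the letters and not of a bound factor.
Trem2 AP-1: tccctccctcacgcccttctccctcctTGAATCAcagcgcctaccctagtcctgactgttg
Gpnmb AP-1: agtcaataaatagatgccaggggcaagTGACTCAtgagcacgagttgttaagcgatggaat
Itgax AP-1: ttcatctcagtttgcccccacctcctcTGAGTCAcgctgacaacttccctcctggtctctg
Spp1 PU.1: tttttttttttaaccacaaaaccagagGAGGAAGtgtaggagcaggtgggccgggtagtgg
Acp5 M-box: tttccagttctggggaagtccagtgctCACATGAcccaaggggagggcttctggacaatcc

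In ATMs from mice on HFD, Acp5 and Spp1 rose without miR-146a, and most of the other lipid-associated genes had higher values that did not pass the test. Comparing miR-146a-/- with WT libraries on HFD, every miR-146a-/- library lay above every WT library for 9 of the 10 members, where the same held for 8.51% of all genes tested. The exception was Lpl. The median log2 fold change of the members was 0.78, against -0.02 for all genes, and all 10 fold changes were above 0. By limma with Benjamini-Hochberg adjustment over all genes, 2 members, Acp5 and Spp1, rose past the threshold of 0.05, where 0.281% of all genes did so in this direction. Fitted to the HFD libraries alone, neither passed, and 0 to 2 members passed when each library was left out. The same fits serve all comparisons below, fold changes are on the scale of log2(FPKM + 1) with their standard errors (SE), and comparisons that have a group in common share its libraries.

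**Figure D1:**
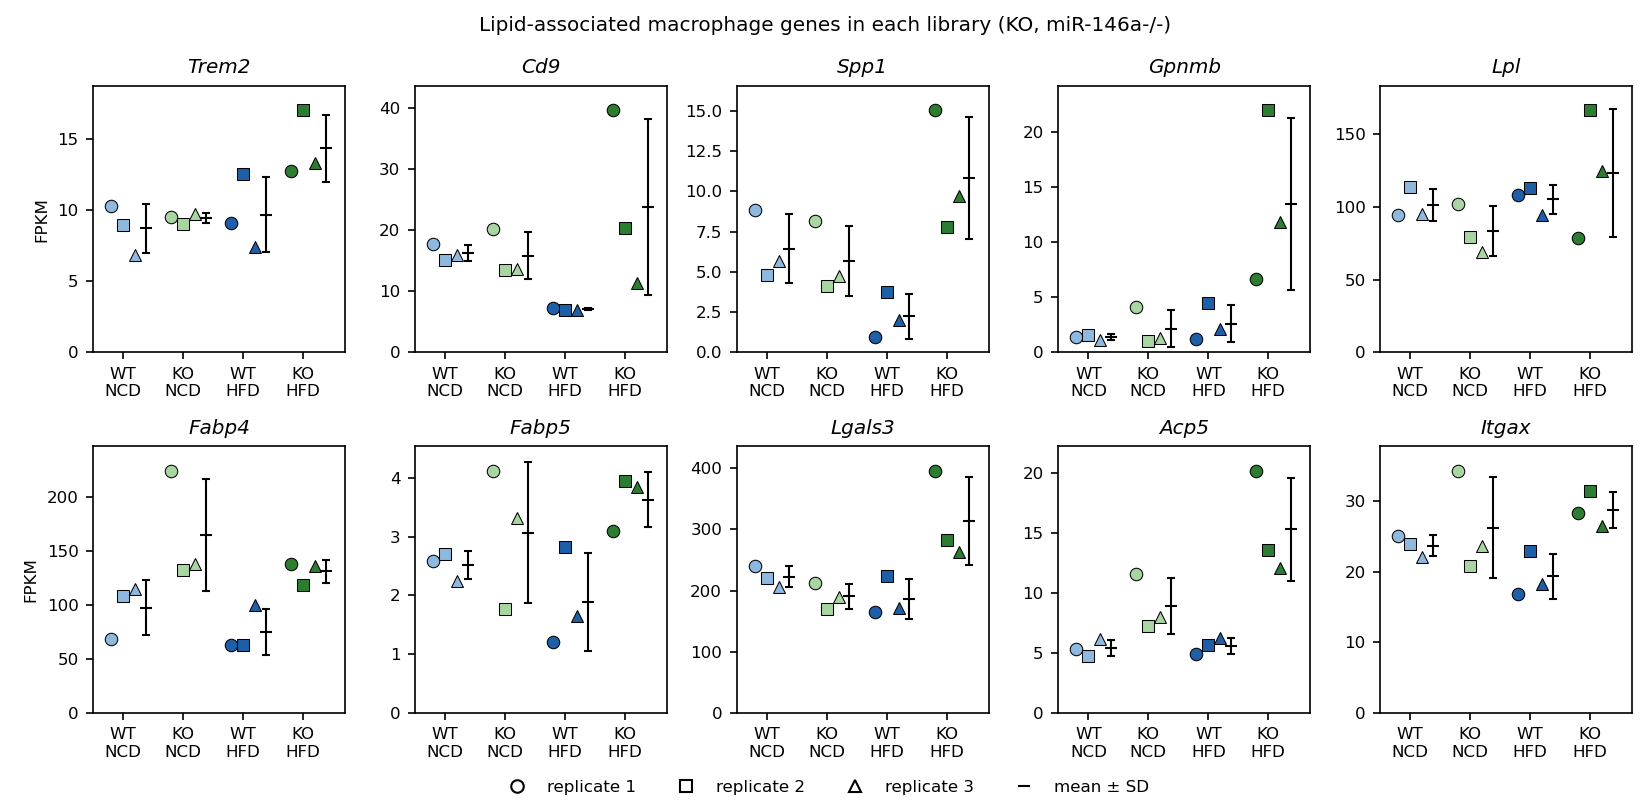
FPKM of each gene (y axes from 0, one panel per gene) in each library of the 4 groups (x axis; KO, miR-146a-/-), with circles, squares and triangles for replicates 1, 2 and 3 and bars for the mean ± SD of 3 libraries. The 3 miR-146a-/- HFD points lie above the 3 WT HFD points in every panel but that of Lpl, and Cd9 and Spp1 are lowest in the WT HFD libraries.

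Trem2, the receptor of the program (ENSMUSG00000023992; chromosome 17, 48346401 to 48354147), was measured at 12.7, 17.0 and 13.3 FPKM in miR-146a-/- HFD replicates 1, 2 and 3 and at 9.13, 12.6 and 7.40 FPKM in the WT HFD libraries. On NCD it was at 9.53, 9.04 and 9.71 FPKM in the miR-146a-/- libraries and at 10.3, 8.99 and 6.86 FPKM in the WT libraries. The miR-146a-/- HFD libraries were the 3 highest of the 12, with a narrow gap to WT HFD replicate 2, and the other groups overlapped. On HFD the log2 fold change with genotype was 0.54 (SE 0.18), and it did not pass the threshold (adjusted p = 0.178, limma).

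Itgax, which encodes the integrin alpha chain CD11c, a surface marker of macrophages recruited to obese fat (ENSMUSG00000030789; chromosome 7, 128129547 to 128150656), was at 28.3, 31.4 and 26.4 FPKM in the miR-146a-/- HFD libraries and at 16.8, 22.9 and 18.3 FPKM in the WT HFD libraries. These groups did not overlap, although the highest value of all, 34.3 FPKM, was in miR-146a-/- NCD replicate 1, beside 20.8 and 23.6 FPKM in the others of that group. The WT NCD libraries were at 25.0, 23.9 and 22.1 FPKM, within the range of the miR-146a-/- NCD libraries. The genotype effect on HFD, 0.56 (SE 0.17), did not pass (adjusted p = 0.149, limma).

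Cd9, a tetraspanin that organizes membrane microdomains (ENSMUSG00000030342; chromosome 6, 125460266 to 125494791), was nearly the same in the WT HFD libraries, at 7.22, 6.87 and 6.997 FPKM, and widely spread in the miR-146a-/- HFD libraries, at 39.6, 20.4 and 11.4 FPKM. The lowest of the latter still lay above all WT HFD libraries. On NCD the levels were 17.7, 15.1 and 15.9 FPKM in WT and 20.2, 13.5 and 13.7 FPKM in miR-146a-/- libraries, which overlapped each other and the miR-146a-/- HFD libraries. WT HFD was thus the group that stood apart, below all the others. The genotype effect on HFD was a log2 fold change of 1.46 (SE 0.34, adjusted p = 0.0884, limma). Among the fits that each left out 1 library, it passed only without miR-146a-/- HFD replicate 3 (1.88, adjusted p = 0.014, limma). Its adjusted p reached 0.247 without WT HFD replicate 1.

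Spp1 encodes osteopontin, a secreted ligand of integrins and CD44 (ENSMUSG00000029304; chromosome 5, 104435118 to 104441050), and it was at 15.0, 7.77 and 9.69 FPKM in the miR-146a-/- HFD libraries and at 0.96, 3.73 and 2.00 FPKM in the WT HFD libraries. These values rest on 148 to 278 reads and on 18 to 70 reads. On NCD, Spp1 was at 8.18, 4.10 and 4.77 FPKM in miR-146a-/- and at 8.85, 4.81 and 5.66 FPKM in WT libraries. As for Cd9, the WT HFD libraries were the lowest of the 12, and the NCD groups overlapped. Spp1 rose with genotype on HFD by a log2 fold change of 1.92 (SE 0.36, adjusted p = 0.0496, limma). This call was at the threshold: of the 12 fits that each left out 1 library, Spp1 passed only in the one that left out miR-146a-/- HFD replicate 2 (adjusted p = 0.0499), and the others gave an adjusted p of 0.0559 to 0.186, with log2 fold changes of 1.60 to 2.24 over all 12.

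Lgals3 encodes galectin-3, a lectin that binds beta-galactosides and is both secreted and held in the cytosol (ENSMUSG00000050335; chromosome 14, 47367751 to 47386160). It had the highest mean of the members, 228 FPKM over all libraries. It was at 397, 282 and 263 FPKM in the miR-146a-/- HFD libraries and at 164, 224 and 171 FPKM in the WT HFD libraries. The 3 miR-146a-/- HFD libraries were the highest of the 12, above the WT NCD libraries (206 to 241 FPKM) and the miR-146a-/- NCD libraries (169 to 212 FPKM). The log2 fold change on HFD was 0.74 (SE 0.17) and did not pass (adjusted p = 0.0786, limma).

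Gpnmb, a transmembrane glycoprotein of lysosomes and the cell surface (ENSMUSG00000029816; chromosome 6, 49036518 to 49058182), was measured at 6.62, 22.0 and 11.8 FPKM in the miR-146a-/- HFD libraries and at 1.25, 4.50 and 2.08 FPKM in the WT HFD libraries. It was low on NCD, at 1.41, 1.61 and 1.08 FPKM in WT and 4.09, 1.03 and 1.33 FPKM in miR-146a-/- libraries. The miR-146a-/- HFD libraries were again the 3 highest, and the other 3 groups overlapped. Gpnmb had the largest ratio of means between the genotypes on HFD, 5.16, and a log2 fold change of 1.96 (SE 0.47), which did not pass (adjusted p = 0.0921, limma). Its level was 3.32 times as high in replicate 2 as in replicate 1 of the miR-146a-/- HFD libraries.

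Acp5 encodes tartrate-resistant acid phosphatase, a lysosomal enzyme best known from osteoclasts (ENSMUSG00000001348; chromosome 9, 22126731 to 22135746). Its level was 20.2, 13.6 and 12.1 FPKM in the miR-146a-/- HFD libraries and 4.91, 5.66 and 6.20 FPKM in the WT HFD libraries. On NCD it was 11.6, 7.24 and 7.95 FPKM in the miR-146a-/- libraries and 5.32, 4.74 and 6.13 FPKM in the WT libraries. Acp5 was the one member whose miR-146a-/- libraries lay above the WT libraries on HFD and on NCD and whose miR-146a-/- HFD libraries also lay above the miR-146a-/- NCD libraries, while the WT groups overlapped. On HFD, Acp5 rose by a log2 fold change of 1.28 (SE 0.20, adjusted p = 0.025, limma), with 203 to 366 reads in the miR-146a-/- and 90 to 104 reads in the WT libraries. The call was lost when WT NCD replicate 3 (adjusted p = 0.0504) or any of WT HFD replicates 1, 2 and 3 was left out (adjusted p = 0.134, 0.0889 and 0.0609).

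Atp6v0d2, a proton pump subunit of osteoclasts, had group means of 3.54 FPKM in WT HFD and 10.2 FPKM in miR-146a-/- HFD libraries, and Ctsk, the collagen-degrading cathepsin K, had 8.20 and 6.17 FPKM. The summed level of the 6 osteoclast markers measured was 116 to 124 FPKM in the miR-146a-/- HFD libraries, within the 105 to 149 FPKM of the WT HFD libraries. That sum was mostly Mmp9, a gene neutrophils also express. The other 5 markers together were at 15.8, 42.9 and 34.1 FPKM in miR-146a-/- HFD replicates 1, 2 and 3 and at 24.1 to 27.3 FPKM in the WT HFD libraries, and Acp5 was highest in replicate 1, where they were lowest. The part of osteoclasts in the level of Acp5 was not tested.

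Lpl encodes lipoprotein lipase, which releases fatty acids from triglycerides of lipoproteins (ENSMUSG00000015568; chromosome 8, 68880491 to 68907448). Its level was 78.6, 167 and 125 FPKM in the miR-146a-/- HFD libraries and 108, 113 and 94.3 FPKM in the WT HFD libraries, and these overlapped. On NCD it was 102, 79.3 and 68.7 FPKM in the miR-146a-/- and 94.2, 114 and 95.5 FPKM in the WT libraries, which overlapped too. The log2 fold change on HFD was 0.17 (95% confidence interval -0.36 to 0.69, adjusted p = 0.748, limma), and it was -0.08 without miR-146a-/- HFD replicate 2.

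Fabp4 encodes the fatty acid carrier of adipocytes and macrophages (ENSMUSG00000062515; chromosome 3, 10204347 to 10208576). It was at 138, 119 and 136 FPKM in the miR-146a-/- HFD libraries and at 62.9, 62.4 and 99.4 FPKM in the WT HFD libraries. On NCD the miR-146a-/- libraries, at 224, 132 and 138 FPKM, also lay above the WT libraries, at 67.8, 108 and 115 FPKM. Fabp4 therefore split by genotype on both diets, with log2 fold changes of 0.83 on HFD (SE 0.26, adjusted p = 0.162) and 0.75 on NCD (SE 0.26, adjusted p = 0.622, limma), neither of which passed. The summed level of 11 adipocyte markers was 22.8 to 32.2 FPKM in the miR-146a-/- HFD and 28.8 to 51.2 FPKM in the WT HFD libraries. Of these markers Cfd was lower (10.5 and 5.18 FPKM in WT and miR-146a-/- HFD) and Lep higher (1.37 and 2.25 FPKM) in group mean. On NCD that sum was 52.8 to 116 FPKM in the miR-146a-/- libraries, with the highest value in replicate 1, which also had the highest Fabp4, and 44.4 to 75.1 FPKM in the WT libraries, and its part in the level of Fabp4 was not tested on either diet.

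Fabp5, the carrier found in skin and in macrophages (ENSMUSG00000027533; chromosome 3, 10012548 to 10016607), was the lowest of the members, at 3.10, 3.95 and 3.86 FPKM in the miR-146a-/- HFD libraries and 1.21, 2.83 and 1.65 FPKM in the WT HFD libraries. On NCD it was at 4.13, 1.76 and 3.32 FPKM in miR-146a-/- and at 2.59, 2.71 and 2.25 FPKM in WT libraries. The HFD groups were apart and the NCD groups overlapped. The log2 fold change on HFD was 0.71 (SE 0.24, adjusted p = 0.176, limma). Fabp5 is also the member with the seed match printed above.

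The order of levels between genes depends on the gene length used. The length given for Trem2 was 4.55 times, and that for Fabp5 3.61 times, the longest coding transcript of GENCODE M21, which lowers their FPKM against the other members, while the ratio was 1.09 for Spp1, 1.03 for Gpnmb and 1.11 for Acp5. It was 1.66 for Cd9, 1.31 for Lgals3 and 0.711 for Fabp4. Cd9 and Acp5 overlap genes on the opposite strand (Gm28809 and Gm26728, and 6530413G14Rik), and whether reads were counted by strand is not given in the sources used here. Spp1 overlaps Gm42793 on its own strand.

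**Figure D2:**
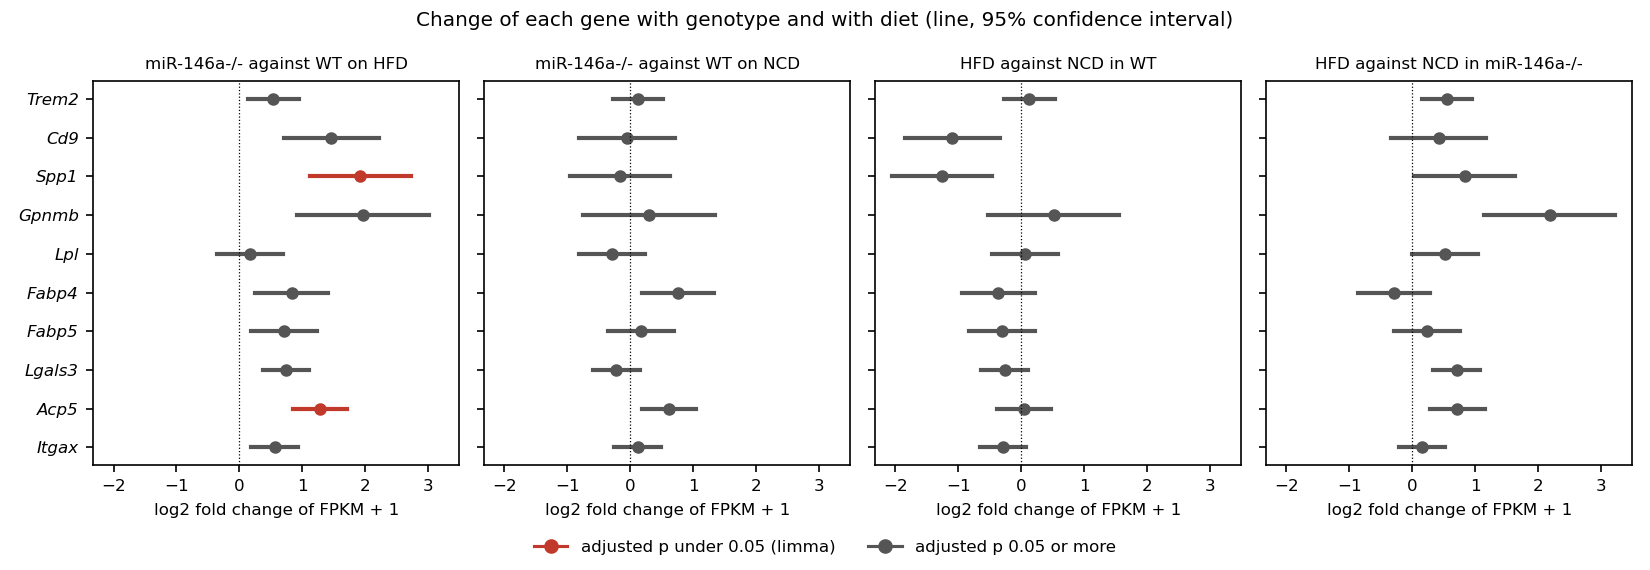
Log2 fold change of FPKM + 1 (x axis) of each gene (y axis) in the 4 comparisons, with the 95% confidence interval from limma as a line and genes with an adjusted p under 0.05 in red. All 10 points lie above 0 for miR-146a-/- against WT on HFD, with Spp1 and Acp5 in red, and Cd9 and Spp1 lie lowest for HFD against NCD in WT.

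The miR-146a-/- HFD libraries did not rank the members alike. Cd9, Spp1, Fabp4, Lgals3 and Acp5 were highest in replicate 1, the library with the high neutrophil markers, and Trem2, Gpnmb, Lpl, Fabp5 and Itgax were highest in replicate 2. Relative to the WT HFD mean, replicate 1 had 5.64 times the Cd9 and 2.54 times the Gpnmb, whereas replicate 2 had 2.90 times the Cd9 and 8.43 times the Gpnmb. The library with the highest neutrophil markers thus had the lowest Trem2, Gpnmb, Lpl and Fabp5 of its group. In replicate 1, the sum of the monocyte markers, at 4701 FPKM against 1637 to 2110 FPKM in all other libraries, was also highest. The sum of the dendritic cell markers, at 353 FPKM, was lowest. The monocyte sum of replicate 1 held 2730 FPKM of Chil3 alone, and without Chil3 it was 1971 FPKM, within the 1618 to 2102 FPKM of the other libraries.

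**Figure D3:**
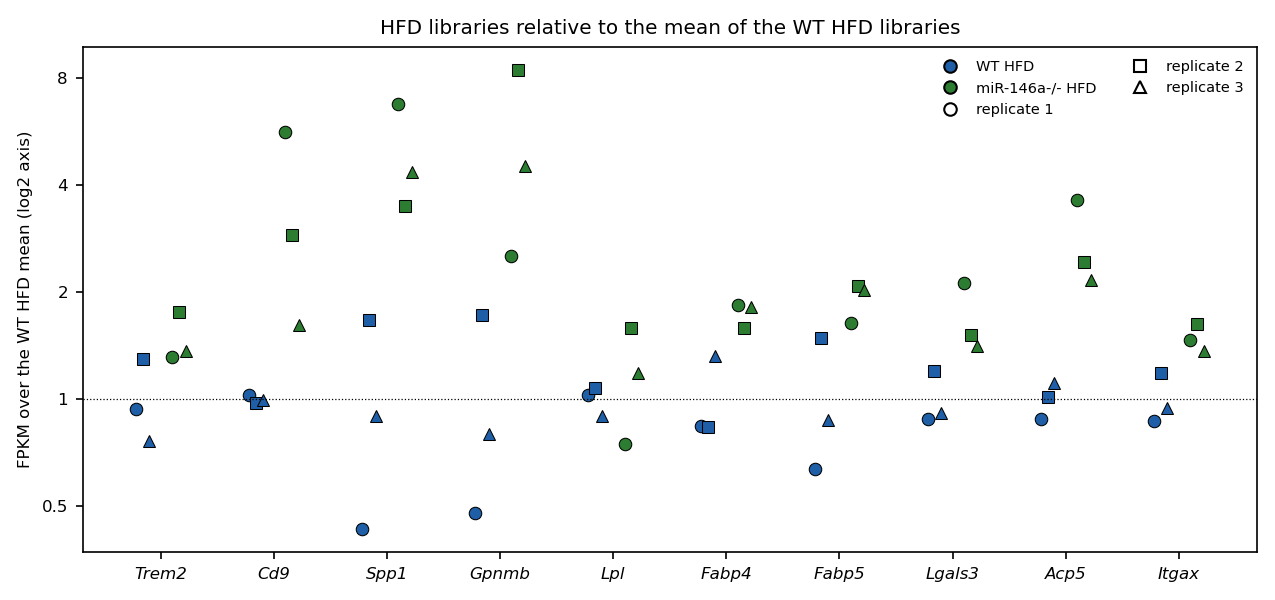
FPKM of each gene (x axis) in the HFD libraries divided by the mean of the WT HFD libraries (y axis, log2 scale), with WT in blue, miR-146a-/- in green and a symbol for each replicate. The circle of miR-146a-/- replicate 1 is highest for Cd9 (5.64) and the square of replicate 2 is highest for Gpnmb (8.43).

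Without miR-146a-/- HFD replicate 1, all 10 fold changes on HFD remained above 0. Gpnmb was then larger, with a log2 fold change of 2.35 (adjusted p = 0.0604), and Lpl was 0.45 (adjusted p = 0.249), while Cd9 was smaller, at 1.02 (adjusted p = 0.065), and Spp1 was 1.68 (adjusted p = 0.0916). Acp5 was 1.08 and still passed (adjusted p = 0.021, limma), and it was then the only member to pass, where 113 of 12119 genes did. The summed neutrophil markers were also higher in miR-146a-/- than in WT libraries in the remaining HFD libraries (608 and 641 FPKM against 143 to 192 FPKM). So was the sum of the 12 endothelial markers (18.9 to 29.0 against 13.1 to 14.3 FPKM over all HFD libraries). Its widest gap was that of Pecam1, with group means of 8.79 against 1.34 FPKM. Kdr, Tek, Emcn and Tie1 had lower means in miR-146a-/- HFD libraries, and the rest higher ones. The summed dendritic cell markers were lower (353 to 514 against 630 to 670 FPKM). That sum was mostly Cd209a, with group means of 97.9 against 220 FPKM, and Clec10a, with 210 against 285 FPKM. Of the other markers in it, Cd24a, Ccr7, Flt3, Clec9a and Xcr1 had higher means in miR-146a-/- HFD libraries and the rest lower ones. The summed fibroblast and preadipocyte markers were at 498 to 886 against 875 to 1605 FPKM. The summed erythroid markers were at 45.3 to 263 against 18.8 to 43.0 FPKM. The part of these cell types in the genotype effect was not tested.

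**Figure D4:**
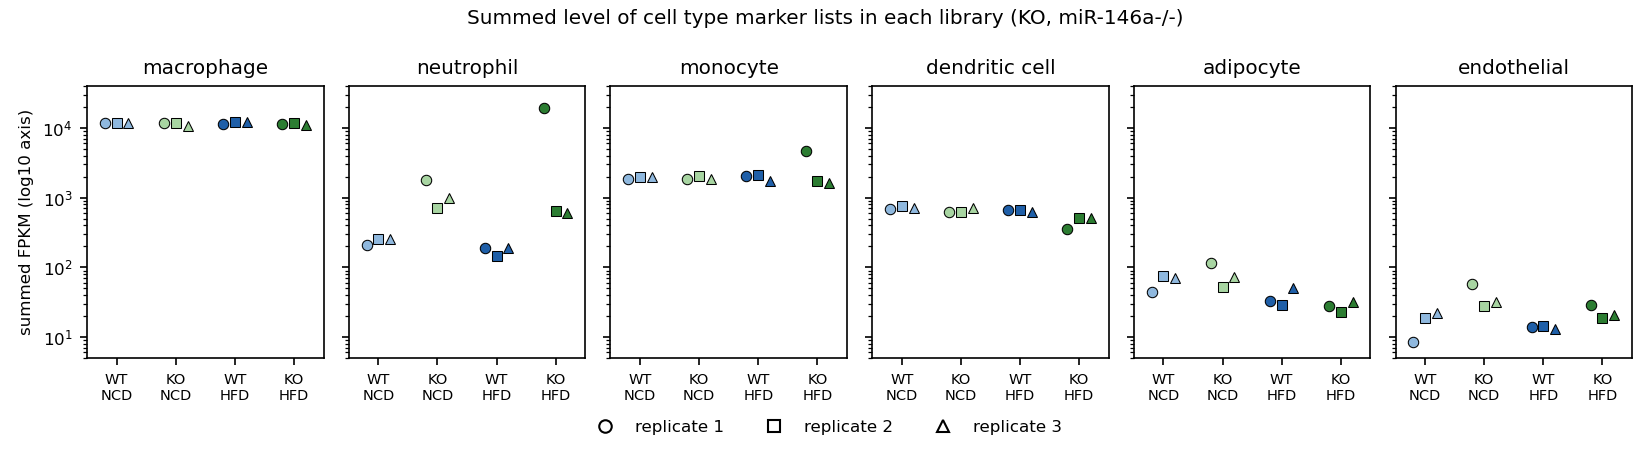
Summed FPKM (y axis, log10 scale) of marker lists for 6 cell types in each library (x axis, groups; symbols, replicates; KO, miR-146a-/-). The macrophage sum, mostly Lyz2, lies at 10688 to 12225 FPKM in all libraries, and neutrophil markers reach 19546 FPKM in miR-146a-/- HFD replicate 1.

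On NCD, no member changed with genotype by limma, where 0.124% of all genes did, and 2 members and 6.68% of all genes had an unadjusted p under 0.05. These members were Fabp4 and Acp5, which were also the 2 members whose miR-146a-/- NCD libraries all lay above the WT NCD libraries, against 10.4% of all genes. Acp5 had a log2 fold change of 0.61 (SE 0.20, adjusted p = 0.552). The median of the members was 0.11, with 6 above 0 and 4 below. Among the miR-146a-/- NCD libraries, replicate 1 had the highest level of every member but Trem2 and the highest neutrophil markers. Without it the log2 fold changes were 0.43 for Acp5 and 0.51 for Fabp4. The neutrophil markers were at 715 to 1765 FPKM in the miR-146a-/- and 206 to 258 FPKM in the WT NCD libraries. In the same order, the endothelial markers were at 27.6 to 57.6 and 8.56 to 21.9 FPKM. The T and NK cell markers were at 126 to 218 and 64.5 to 123 FPKM. The erythroid markers were at 20.4 to 93.5 and 5.46 to 15.0 FPKM. The mesothelial markers were at 10.5 to 22.7 and 4.33 to 9.16 FPKM. The osteoclast markers, mostly Mmp9, were at 130 to 150 and 110 to 121 FPKM. The remaining sums overlapped, and the part of these cell types was not tested.

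In WT mice, no member passed for HFD against NCD, where 2.98% of all genes did by limma, and 2 members and 19.1% of all genes had an unadjusted p under 0.05. These members, Cd9 and Spp1, were lower in every HFD than in every NCD library, as were 15.7% of all genes. Their log2 fold changes were -1.10 (SE 0.34, adjusted p = 0.113) for Cd9 and -1.26 (SE 0.36, adjusted p = 0.0945) for Spp1. Without miR-146a-/- HFD replicate 1 the fall of Cd9 passed (adjusted p = 0.0093), and it passed without replicate 3 of that group as well (adjusted p = 0.0293). In the fit without replicate 1, 1185 of 12119 genes passed, and the fold change of Cd9 was unchanged, with an SE of 0.20. The fall of Cd9 passed in no other fit that left out 1 library, and its adjusted p reached 0.269 without WT NCD replicate 1 (limma). The median over the members was -0.28, with 6 below 0, and Trem2 and Gpnmb had values of 0.13 and 0.52. The summed mast cell markers were at 22.2 to 42.5 FPKM in WT HFD and 180 to 364 FPKM in WT NCD libraries. The summed B cell markers, mostly Ighm and Igkc, were at 421 to 809 and 1082 to 2084 FPKM. The summed erythroid markers were higher on HFD (18.8 to 43.0 against 5.46 to 15.0 FPKM). So were the handling and dissociation stress genes (3589 to 4017 against 3364 to 3555 FPKM). The dendritic cell markers were lower on HFD (630 to 670 against 692 to 762 FPKM). The neutrophil markers were lower as well (143 to 192 against 206 to 258 FPKM). The part of these cell types and of the stress genes in the diet effect was not tested.

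In miR-146a-/- mice, HFD against NCD gave the opposite balance, with 9 of 10 members above 0 and a median of 0.53. No member passed, where 0.759% of all genes did by limma, and 5 members and 13.4% of all genes had an unadjusted p under 0.05. Trem2, Gpnmb, Lgals3 and Acp5 were higher in every HFD than in every NCD library, as were 5.72% of all genes. Gpnmb had a log2 fold change of 2.18 (SE 0.47, adjusted p = 0.0722), larger than that of 99.99% of the genes tested, and without miR-146a-/- HFD replicate 1 it passed (2.57, adjusted p = 0.0402). In that fit 198 of 12119 genes passed. In no other fit that left out 1 library did Gpnmb pass, and its adjusted p reached 0.260 without miR-146a-/- NCD replicate 3 (limma). Lgals3 was at 0.70 (adjusted p = 0.0998), Acp5 at 0.71 (adjusted p = 0.143) and Trem2 at 0.55 (adjusted p = 0.219). Cd9 was at 0.42, and at -0.02 without miR-146a-/- HFD replicate 1. The summed mast cell markers were at 14.5 to 52.6 FPKM in the miR-146a-/- HFD and 135 to 273 FPKM in the miR-146a-/- NCD libraries. The summed B cell markers were at 264 to 505 and 1319 to 1976 FPKM. The adipocyte markers were at 22.8 to 32.2 and 52.8 to 116 FPKM. Dendritic cell markers were at 353 to 514 and 623 to 704 FPKM. The osteoclast markers, mostly Mmp9, were at 116 to 124 and 130 to 150 FPKM. Mesothelial markers were at 4.18 to 10.50 and 10.52 to 22.7 FPKM. The other sums overlapped, with neutrophil markers at 608 to 19546 and 715 to 1765 FPKM. The part of these cell types was not tested here either.

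Whether the genotype effect differed between the diets was tested directly, as the difference of the genotype effects. By limma, 0 of 12119 genes passed, with 1481 genes (12.2%), 5 members among them, at an unadjusted p under 0.05, and limma voom on the recovered reads also called 0. All 10 differences were above 0, with a median of 0.61 against -0.03 for all genes. The largest was that of Spp1, at 2.09 (SE 0.51, adjusted p = 0.202), and Lgals3 was at 0.97 (SE 0.24, adjusted p = 0.202). Cd9 was at 1.52 (adjusted p = 0.277), Gpnmb at 1.67 (adjusted p = 0.373) and Acp5 at 0.67 (adjusted p = 0.384). Fabp4 was at 0.08, its genotype effects being alike in size on both diets, and it fell below 0 under quantile normalization (-0.03). A larger genotype effect on HFD than on NCD was therefore not shown for any member.

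Genes that act with the members were described as lists, for miR-146a-/- against WT on HFD unless said otherwise. In that comparison 46.6% of all genes tested were above 0, and the median of all genes was -0.02. Of 14 partners of TREM2 signaling none passed the threshold, 12 were above 0 and the median was 0.16. Tyrobp, the adaptor of TREM2, was at 1324 ± 82.4 FPKM in WT and 1542 ± 464 FPKM in miR-146a-/- libraries (SD, n = 3 libraries; log2 fold change 0.18, adjusted p = 0.601, limma), and the Src-family kinase Lyn was at 0.36 (adjusted p = 0.33). The other receptors of the TREM family had the largest values, with a median of 2.80 over 4 genes, of which none passed. Trem1, a receptor of neutrophils and monocytes, was at 1.60 ± 0.37 in WT and 49.1 ± 70.6 FPKM in miR-146a-/- libraries, and Treml4 at 1.59 ± 0.39 and 57.2 ± 82.6 FPKM. The SD above the mean in the latter group stands beside the neutrophil markers at 19546 FPKM in replicate 1, and their part in these values was not tested.

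Receptors of osteopontin and their integrin partners were above 0 for all 11 genes tested, with a median of 0.60. One of them passed: Itga5, a chain of the fibronectin receptor, which rose from 7.75 ± 1.19 to 14.3 ± 1.40 FPKM (log2 fold change 0.81, adjusted p = 0.0222, limma). Without WT HFD replicate 1 or 2 its adjusted p was 0.0607 or 0.0586, and in a fit of only the HFD groups it was 0.235. Cd44, the other class of osteopontin receptor, had group means of 49.3 and 96.9 FPKM (adjusted p = 0.0813), and Itgav had 4.51 and 7.43 FPKM (adjusted p = 0.0887). The list also holds Itgal, with 3.09 and 19.1 FPKM, Itgb2, with 173 and 280 FPKM, and Itgam, with 110 and 167 FPKM, and none of these passed. The part of the neutrophil markers, at 19546 FPKM in miR-146a-/- HFD replicate 1, in the values of this list was not tested. In WT mice, Itga9, an osteopontin-binding integrin chain, rose with HFD from 8.77 ± 1.92 to 18.9 ± 1.27 FPKM (log2 fold change 1.05, adjusted p = 0.0149), where Spp1 itself was lower. That call was lost when WT NCD replicate 1 or 3 (adjusted p = 0.0666 and 0.0586) or WT HFD replicate 1 or 2 (adjusted p = 0.0544 and 0.0657) was left out.

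Among 32 lysosomal and surface genes of lipid-associated and disease-associated macrophages, 1 passed, 21 were above 0 and the median was 0.16. Axl, a receptor for apoptotic cells, rose from 61.6 ± 7.28 to 88.8 ± 6.23 FPKM (log2 fold change 0.52, adjusted p = 0.047, limma). It passed without WT HFD replicate 3 or miR-146a-/- HFD replicate 2 (adjusted p = 0.0334 and 0.045), and its adjusted p was 0.0549 to 0.192 without any other library. The call of Axl was also lost with no filter on low values, with quantile normalization, with no trend and no robust estimate (adjusted p = 0.053, 0.060 and 0.0557) and in a fit of only the HFD groups (adjusted p = 0.356). In miR-146a-/- mice Axl also rose with HFD, from 57.4 ± 2.06 FPKM (log2 fold change 0.62, adjusted p = 0.0225), a call lost without miR-146a-/- NCD replicate 1, 2 or 3 (adjusted p = 0.0777, 0.0655 and 0.117) and in a fit of only the miR-146a-/- groups (adjusted p = 0.115). The proteases Ctsb and Ctss, abundant cathepsins of the lysosome, had log2 fold changes of -0.03 (adjusted p = 0.915) and 0.37 (adjusted p = 0.164).

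Of 25 other lipid-handling genes none passed with genotype on HFD, 19 were above 0 and the median was 0.38. Apoe, the lipid-carrying apolipoprotein of the program, was at -0.25 (adjusted p = 0.452) and Cd36, a fatty acid and oxidized lipoprotein receptor, at 0.06 (adjusted p = 0.908, limma). Nceh1, a hydrolase of cholesteryl esters, was at 17.4 ± 1.30 FPKM in WT and 23.7 ± 2.12 FPKM in miR-146a-/- HFD libraries (adjusted p = 0.0759). With diet in miR-146a-/- mice it rose from 15.7 ± 1.67 FPKM (log2 fold change 0.57, adjusted p = 0.0295), a call that leaving out WT NCD replicate 2 or 3, any miR-146a-/- NCD library or miR-146a-/- HFD replicate 2 or 3 ended (adjusted p = 0.0506 to 0.119), as did a fit of only the miR-146a-/- groups (adjusted p = 0.185). The 8 partners of lipoprotein lipase that were tested included none that passed, with a median of 0.10. Lipa, the lysosomal acid lipase, was closest, at 159 ± 8.39 and 208 ± 1.22 FPKM (log2 fold change 0.39, adjusted p = 0.0546), and Sel1l, which acts in the maturation of lipoprotein lipase, was at 0.01 (adjusted p = 0.969).

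Of 13 other tetraspanins none passed, 6 were above 0 and the median was -0.06, with Cd81 at -0.46 (adjusted p = 0.127) and Cd53 at 0.30 (adjusted p = 0.189, limma). Of 5 other galectins none passed and none was above 0, with Lgals1 at -0.17 (adjusted p = 0.538) and Lgals3bp, a galectin-binding glycoprotein kept with them, at -0.17 (adjusted p = 0.608). Fabp7, a relative of the fatty acid binding proteins, was at 0.23 ± 0.21 in WT and 15.0 ± 24.0 FPKM in miR-146a-/- libraries and did not pass. Of 17 transcription factors tied to the program or to osteoclasts none passed, and the median was 0.01, with Spi1, which encodes PU.1, at 0.30 (adjusted p = 0.364) and Cebpb, a factor induced in inflammation, at 0.93 (adjusted p = 0.222).

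The genes whose profile over the 12 libraries lay nearest to the called members were found by the root mean square difference of centred log2(FPKM + 1) values. A like order of the groups follows from this choice. The part of the neutrophil markers, at 19546 FPKM in miR-146a-/- HFD replicate 1, in their values was not tested. Nearest to Spp1 were Ggta1, a galactosyltransferase (0.31), Sirpb1a, a receptor that pairs with TYROBP (0.32), and Sgk1, a kinase induced by serum and glucocorticoids (0.35), all lowest in WT HFD, at 2.40 ± 0.49, 3.67 ± 1.18 and 9.55 ± 1.47 FPKM, and highest in miR-146a-/- HFD libraries, at 12.3 ± 6.64, 13.9 ± 6.95 and 29.2 ± 17.5 FPKM. The member nearest to Spp1 was Cd9, at 0.44. Nearest to Acp5 were Rnf128, a ubiquitin ligase (0.20), Galnt6, which starts O-linked glycosylation (0.20), and Ptk2b, a focal adhesion kinase (0.25), whose means in miR-146a-/- HFD libraries were 5.10 ± 2.38, 6.64 ± 2.44 and 18.0 ± 9.79 FPKM against 1.09 ± 0.09, 2.46 ± 0.30 and 8.68 ± 0.72 FPKM in WT HFD. The nearest gene to Gpnmb, a member that was not called and is named here after its values were seen, was Mmp12, the macrophage elastase (0.41), with group means of 2.89 and 5.87 FPKM in WT and miR-146a-/- NCD and 7.93 and 18.3 FPKM in WT and miR-146a-/- HFD libraries.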

How the data were processed

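RNA-seq of sorted ATMs was analysed in 12 libraries, grouped by genotype and diet from the sample labels. The deposited values are FPKM, made by the authors from reads per gene, the gene length and the reads counted to genes, with no further scaling between libraries. The submitters' processing notes name Novoalign and mm10, without a version of the aligner. Multiplied back, all 184716 FPKM values came out as whole reads (tolerance 1e-06).

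Genes whose mean over all 12 libraries reached 1 FPKM (the same genes in the fits that left out libraries, a choice made after the data were seen) were put on the log2(FPKM + 1) scale and fitted in limma 3.58.1 (R 4.3.3; eBayes with trend and robust estimate, statmod 1.5.0), with a mean per group and all groups in one fit. The Benjamini-Hochberg adjustment ran over all genes, with a threshold of 0.05, and intervals are at 95%. The test was checked on simulated data. The members and lists were chosen with earlier results of these data known. Genes named are all members, of each list up to 4 genes that passed in a comparison (if fewer than 2, the 2 highest by mean FPKM), the 3 nearest profiles to each called member, and up to 3 markers per cell type. Named after their values were seen were Cd44, Itgav, Itgal, Itgb2, Itgam, Camp, Ctsk, Atp6v0d2, Mmp9, Chil3, Cfd, Lep, Mmp12, Kdr, Tek, Emcn, Tie1, Ccr7, Flt3, Clec9a and Xcr1. The alternatives tried were quantile normalization, median-ratio scaling, a pseudocount of 0.1, filters at a mean of 5 FPKM or none, a replicate block, array quality weights, no trend or robust estimate, limma voom on recovered reads, fits of only the groups compared, and each library left out. Promoter and miRNA sequences came from RefSeq (GRCm38.p6), and 3′ UTRs from GENCODE M21. Look-alike transcripts were searched with blastn 2.17.0 and none was found at 95% identity over 50% of the length. Figures were drawn with matplotlib 3.10.9. One gene of a list is not reported here.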

Additional observations from a re-analysis of the deposited data

How the results depend on the processing

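The number of lipid-associated genes that passed for miR-146a-/- against WT on HFD, 2 as reported, was 1 (Acp5) with a pseudocount of 0.1, with no filter on low values, with quantile normalization and with no trend and no robust estimate. It was 7 with array quality weights (all but Lpl, Fabp4 and Fabp5), 0 in a fit of only the groups compared, 3 with limma voom on the recovered reads, and 0 to 2 when each library was left out. For HFD against NCD in WT it was 0 as reported, 2 (Cd9 and Spp1) with array quality weights, 1 (Cd9) in a fit of only the groups compared, and 0 to 1 with each library left out. For HFD against NCD in miR-146a-/- it was 0 as reported, 5 with array quality weights and 0 to 1 with each library left out. It stayed at 0 on NCD and for the difference of the genotype effects in every alternative run, and the latter could not be fitted to only the groups compared, since it needs all 4. Deviations of same-numbered libraries correlated at -0.05 to 0.12. Among the 3 libraries of the other group, the same number was closest in 17 of 36 comparisons. These values do not settle whether the replicate numbers pair the libraries. With the replicate block, 1 member (Acp5) passed on HFD and the other counts of members did not move, while the adjusted p of Nceh1 for HFD against NCD in miR-146a-/- was 0.0566.

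Over all genes, the count on HFD was 76 as reported, 594 with array quality weights, 121 with limma voom, 51 with no filter, 48 with quantile normalization, 44 with no trend and no robust estimate, 6 in a fit of only the groups compared and 12 to 113 with each library left out. On NCD it was 15, and 66, 57 and 5 to 54 with array quality weights, only the groups compared and each library left out. For HFD against NCD in WT it was 361, and 1588, 755 and 86 to 1185, and in miR-146a-/- it was 92, and 706, 2 and 17 to 198. For the difference of the genotype effects it was 0, and 42 with array quality weights and 0 to 7 with each library left out. The cause of these shifts was not tested.

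Some values near 0 changed sign. Acp5 for HFD against NCD in WT was -0.024 with array quality weights and -0.032 to 0.12 with each library left out, and Fabp4 for the difference of the genotype effects was -0.027 with quantile normalization and -0.061 to 0.32. With each library left out, Lpl on HFD was -0.082 to 0.45. On NCD the genotype effect was -0.23 to 0.039 for Cd9, -0.42 to 0.054 for Spp1, -0.027 to 0.23 for Trem2, -0.11 to 0.55 for Gpnmb, -0.023 to 0.42 for Fabp5 and -0.092 to 0.26 for Itgax. For HFD against NCD, Trem2 was -0.059 to 0.29 in WT, and in miR-146a-/- Fabp5 was -0.027 to 0.42 and Cd9 was -0.023 to 0.83.

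With 3 pooled libraries in each group, the estimate of the spread leans on all 4 groups. Low read numbers limit Spp1 (18 to 278 reads per library), Gpnmb (43 to 966), Fabp5 (49 to 163) and Acp5 (80 to 366), and the pseudocount shrinks the fold changes of Fabp5, Gpnmb and Spp1 most.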
